A study of Homo sapiens with 6 samples.

Results

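The circular RNAs (circRNAs) described here are the moderately expressed, catalogued circRNAs that were found in every library of a cholesterol experiment in C28/I2, a human chondrocyte line that has been immortalised for culture. They were selected on the deposited counts, as rows with an hsa_circ identifier that had reads in each of the 6 libraries and fewer than 120 reads over the 6. By this rule 225 of the 3089 listed circRNAs were members, 7.28% of the rows, and they held 15667 of the 70508 junction reads, or 22.2%. Of the 331 circRNAs above 0 in every library, 77 catalogued ones had 120 reads or more and 29 carried a novel_circ identifier. The cholesterol group was 3 libraries of cells kept with 10 μg/mL cholesterol for 48 h, and the control group was 3 libraries of cells grown without it. The comparison asks which circRNAs change when chondrocytes are loaded with cholesterol. RNA was depleted of ribosomal RNA and digested with RNase R, so that linear RNA was largely removed before sequencing. All 6 libraries come from the same immortalised line, the labels name no other treatment, and the study's methods give 3 specimens per group, seeded in culture dishes. Whether these were independent experiments is not given in the sources used here, so that p-values measure the spread between these libraries, which may be technical.

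A circRNA forms when the spliceosome joins a splice donor back to an acceptor upstream of it, and the ring that results has no free end for an exonuclease to attack. The back-splice junction is the only stretch of sequence that a ring does not share with the linear transcripts of its host gene, so reads over that junction are what is counted. Rings of this kind are known to bind miRNAs and proteins, and in cartilage several have been linked with matrix breakdown. In the sequences used here, 41 of the 225 circRNAs (18.2%) had a position and a junction sequence, all on chromosomes 1, 3, 20, 21 and 22, and the other 184 had none, so their host genes are not given. The identity of C28/I2 cells could not be checked on marker genes, because linear mRNA had been digested. No gene of the cartilage matrix (20 genes) or fibroblast and osteoblast (15 genes) lists hosted any of the 482 circRNAs with a position. Listed genes on other chromosomes than those above could not be found in this way.

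The junctions below belong to the members with a position that had the most reads. Each is 54 bases, 5′ to 3′, with 27 bases of the end of the ring followed by 27 bases of its start, and the 10 bases on either side of the back-splice are in capitals. All of them matched GRCh38 on the stated strand, and the sequences were read from the study's sequence sheet.
hsa_circ_0001137 (DNMT3B, chr20:32788854-32792770, plus strand): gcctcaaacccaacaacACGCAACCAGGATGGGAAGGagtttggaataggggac
hsa_circ_0006062 (DYRK1A, chr21:37420299-37430400, plus strand): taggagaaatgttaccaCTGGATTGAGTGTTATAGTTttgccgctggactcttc
hsa_circ_0006427 (BCAR3, chr1:93567279-93567851, minus strand): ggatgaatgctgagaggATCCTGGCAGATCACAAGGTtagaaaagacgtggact
hsa_circ_0006922 (ASXL1, chr20:32366384-32371874, plus strand): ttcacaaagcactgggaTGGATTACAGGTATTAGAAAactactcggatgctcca
hsa_circ_0002387 (TNIK, chr3:171188702-171194635, minus strand): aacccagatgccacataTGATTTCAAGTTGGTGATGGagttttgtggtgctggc
hsa_circ_0002877 (MRTFA, chr22:40552106-40594735, minus strand): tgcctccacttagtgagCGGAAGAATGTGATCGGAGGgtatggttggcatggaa
hsa_circ_0003456 (PSMA7, chr20:62139075-62140944, minus strand): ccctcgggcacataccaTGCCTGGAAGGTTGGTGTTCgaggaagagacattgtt
hsa_circ_0001187 (DOP1B, chr21:36247517-36248568, plus strand): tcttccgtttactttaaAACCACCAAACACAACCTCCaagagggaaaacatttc

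Hosts can also give rise to several rings, and the next junctions show how such rings differ. The KHDRBS1 pair shares its acceptor and so the right-hand part of the sequence, while the donor, and with it the left-hand part, differs. The RASAL2 pair shares its donor, and the acceptors lie 8 bases apart. Both KHDRBS1 rings and hsa_circ_0002061 of RASAL2 are members, and hsa_circ_0006126 is not.
hsa_circ_0007231 (KHDRBS1, chr1:32036910-32038619, plus strand): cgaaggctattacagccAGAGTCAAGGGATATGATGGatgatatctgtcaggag
hsa_circ_0002467 (KHDRBS1, chr1:32036910-32039573, plus strand): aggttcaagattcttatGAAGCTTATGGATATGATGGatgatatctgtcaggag
hsa_circ_0002061 (RASAL2, chr1:178123056-178125501, plus strand): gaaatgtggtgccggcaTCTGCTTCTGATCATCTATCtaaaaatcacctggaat
hsa_circ_0006126 (RASAL2, chr1:178123048-178125501, plus strand): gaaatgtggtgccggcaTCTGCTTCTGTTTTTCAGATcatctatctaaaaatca

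The circRNAs with a position were exonic rings. All 41 were flanked by AG before the acceptor and GT after the donor, and in all 41 both ends fell on annotated exon boundaries of GENCODE release 44. The 20 bases centred on the junction were found in the annotated linear transcripts of 0 genes. In the transcript models chosen, 18 of the 41 rings had 2 exons, 12 had 3, 5 had 4 and 5 had 5, and hsa_circ_0001206 of CRKL, which encodes a signalling adaptor, was a single exon. None included the last exon of its host, and 17 of 41 (41.5%) began with the second exon, against 103 of 407 (25.3%) of the catalogued rings missing from at least 1 library and 5 of 11 (45.5%) of the rings with 120 reads or more. Their spliced length ran from 218 to 785 nt with a median of 358 nt, beside a median of 381 nt in the rings missing from at least 1 library. The GC content had a median of 49.6%, and was lowest, 37.1%, in hsa_circ_0002468 of CEP70, a centrosome gene. Coding sequence made up the whole ring in 29 of the 41 and a part of it in 8, and 8 rings held the annotated start codon of the transcript. These shares are descriptions of the chromosomes named above, and no difference between the sets was tested. For 36 of the 41 the exon model gave the same sequence as the study's sheet, as far as the sheet showed it. Among the other 5, those of DYRK1A, RASAL2 and EPIC1 differed from the sheet, so the exon count and length of these 3 are uncertain, and for ASXL1 and RNF19B the full sequence of the ring could not be compared, although the junction was given and matched.

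Members had few reads each. Their sums over the 6 libraries ran from 27 to 119 with a median of 67.0, against a median of 8 over all 3089 circRNAs. Library depth was 10944, 14322 and 9168 junction reads in cholesterol libraries 1 to 3, and 11142, 11351 and 13581 in control libraries 1 to 3. The median member had 11, 13 and 8 reads in the cholesterol libraries and 10, 10 and 11 in the controls, so a single read was worth 75.3 to 95.4 CPM, the junction reads scaled to a common depth with TMM factors. No count of 1 is listed in any library: the smallest above 0 was 2, and 27 of the 225 members reached 2 in their lowest library. The other 198 had at least 3 reads in every library, and the best covered member on this measure had 16 in its lowest.

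**Figure D1:**
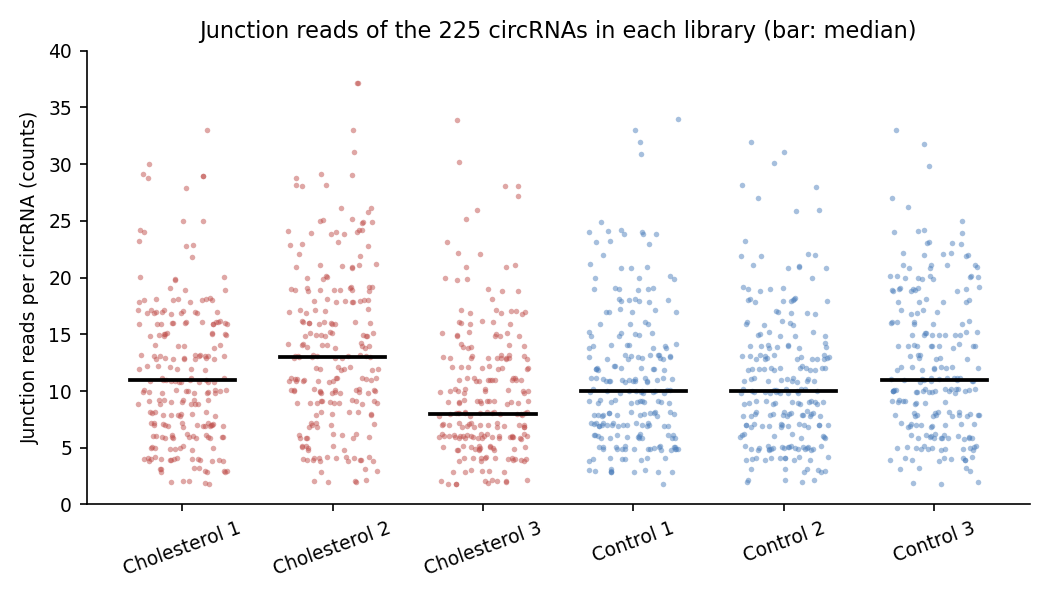
Junction reads of each of the 225 members (vertical axis, counts, points shifted slightly so that they do not hide each other) in the 6 libraries, cholesterol in red and control in blue. Black bars are medians, which lie between 8 and 13 reads, and every library spans from 2 reads to over 30.

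The rule cuts through a continuous range of counts. Just inside it, hsa_circ_0008011 had 119 reads in all, with 23, 15 and 7 in the cholesterol libraries and 34, 14 and 26 in the controls. Both hsa_circ_0003596 and hsa_circ_0072992 had 118, hsa_circ_0002132 had 117, and hsa_circ_0058806 and hsa_circ_0002024 had 116. Just outside it, hsa_circ_0005386 had 120 reads, hsa_circ_0000478 and hsa_circ_0037158 had 121, and hsa_circ_0002346 and hsa_circ_0017636 had 122. At the low end stood hsa_circ_0007511 with 27 reads, hsa_circ_0004968 with 30, and hsa_circ_0001905, hsa_circ_0004945 and hsa_circ_0082624 with 31 each. Another 248 catalogued circRNAs had sums in the same range from 27 to under 120 but were at 0 in at least 1 library, and they are not members.

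Taken over all members, the share of junction reads was 23.5%, 21.6% and 24.3% in the cholesterol libraries and 22.6%, 21.7% and 20.5% in the controls. The exact (Clopper-Pearson) 95% binomial intervals, which cover counting error only, ran from 19.8% to 21.2% in control library 3, the lowest, and from 23.4% to 25.2% in cholesterol library 3, the highest. The groups overlapped, since cholesterol library 2 lay below control library 1. The cholesterol mean of 23.2% ± 1.37 and the control mean of 21.6% ± 1.05 (SD, n = 3 each) lay 1.55 percentage points apart, and an exact permutation test, two-sided, gave p = 0.300. With 3 against 3 libraries such a test cannot go below 0.1. The difference was 0.970 points without cholesterol library 3 and 2.30 points without cholesterol library 2. As a share of the reads of circRNAs found in every library, it was 1.03 points. The median CPM of the members was 980, 979 and 763 in the cholesterol libraries and 872, 914 and 873 in the controls. Cholesterol library 3, the shallowest of the 6, had the lowest value, and the groups did not differ beyond the spread of libraries (908 ± 125 against 886 ± 23.9, SD, n = 3, p = 1.0 by the same exact test).

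Against control, 10 of the 225 members passed an unadjusted p of 0.05 in edgeR's quasi-likelihood test, the threshold the study used, with 7 higher and 3 lower in the cholesterol libraries. This split depended on single libraries: it was 2 higher and 6 lower without control library 2, and 3 higher and 5 lower without cholesterol library 1 and likewise without control library 1. Of all 3089 circRNAs, 2.46% passed, 1.23% higher and 1.23% lower. The members' 4.44% is not comparable with that background as it stands, because it covers mostly rows with far fewer reads, and 7 of the 77 catalogued circRNAs with 120 reads or more (9.09%) passed as well. After edgeR's filter on low counts the members' share lay below that of all rows tested, at 5 of 132 (3.79%) against 18 of 254 (7.09%). No member passed after Benjamini-Hochberg adjustment over the 3089 rows, where the smallest adjusted p of a member was 0.772, shared by all 10. With DESeq2, which the study names for normalising its counts, 36 of the 3089 rows (1.17%) passed the unadjusted threshold. The study likewise reported 36 differentially expressed circRNAs. Of the 225 members, 3 passed with DESeq2, and again none after adjustment. All 3 were among the 10. The median log2 fold change of the members was -0.001, with quartiles of -0.35 and 0.42, and 112 members had a positive and 113 a negative value. The median over all rows was -0.22. The rule keeps out every circRNA that is at 0 in a library, and so the largest fold changes: member values ran from -1.59 to 1.72, and those of the whole table from -6.57 to 6.95.

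**Figure D2:**
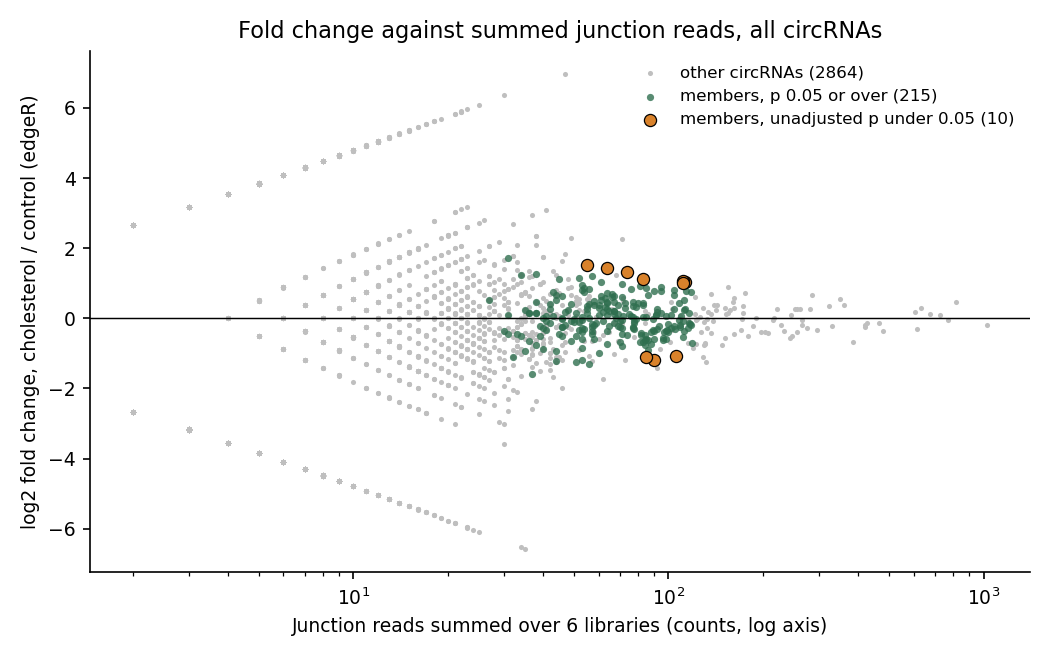
Fitted log2 fold change, cholesterol over control (vertical axis), against junction reads summed over the 6 libraries (horizontal axis, log scale) for all circRNAs, with members in green and the 10 that passed an unadjusted p of 0.05 in orange. Members lie between -1.59 and 1.72, and the fan of grey points to their left is made of circRNAs with few reads, many of them at 0 in a whole group.

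Of the 7 that were higher with cholesterol, the ring with the largest fold change was hsa_circ_0008655, with 16, 10 and 15 reads in the cholesterol libraries and 7, 3 and 4 in the controls. Every cholesterol library lay above every control in CPM, and the mean was 3.0 times that of the controls (log2 fold change 1.53 ± 0.76, here and below with its standard error). Close to it was hsa_circ_0000734, with 14, 19 and 14 reads against 5, 4 and 8. This ring had the tightest cholesterol group of the 10, 1338 ± 91.6 CPM against 479 ± 140 (SD, n = 3), again without overlap (log2 fold change 1.45 ± 0.68). In hsa_circ_0002483 the difference rested on cholesterol libraries 1 and 2, with 20, 28 and 5 reads against 7, 8 and 6. Cholesterol library 3 lay within the controls (log2 fold change 1.31 ± 0.62). The fourth of these rings was hsa_circ_0005389, with 18, 26 and 13 reads against 3, 8 and 15, where the groups did not overlap once scaled for depth (log2 fold change 1.12 ± 0.56). These calls depended on single libraries: leaving out control library 2 ended the calls of hsa_circ_0008655 (1.32 ± 0.81) and hsa_circ_0000734 (1.28 ± 0.73), leaving out cholesterol library 2 ended that of hsa_circ_0002483 (0.90 ± 0.77), and leaving out control library 1 ended that of hsa_circ_0005389 (0.69 ± 0.57).

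The other 3 higher rings were among the better covered members. Reads of hsa_circ_0004096 were 29, 29 and 17 in the cholesterol libraries and 9, 10 and 17 in the controls, without overlap in CPM, and it ranked first among the members by p (log2 fold change 1.05 ± 0.46). For hsa_circ_0001550 the counts were 16, 37 and 23 against 6, 10 and 21. Control library 3 reached into the cholesterol range there (log2 fold change 1.03 ± 0.46). The third was the DYRK1A ring hsa_circ_0006062, the one called member with a position. DYRK1A encodes a dual-specificity kinase of the chromosome 21 region linked with Down syndrome. Its counts were 33, 16 and 25 against 13, 5 and 19, so that cholesterol library 2 and control library 3 overlapped (log2 fold change 1.01 ± 0.46). Without control library 1 the values of hsa_circ_0004096 and hsa_circ_0001550 were 0.86 ± 0.50 and 0.68 ± 0.48, and without control library 2 that of the DYRK1A ring was 0.66 ± 0.48, and none of these passed.

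Lower with cholesterol were hsa_circ_0083176, hsa_circ_0001952 and hsa_circ_0008424. The first had 6, 21 and 7 reads in the cholesterol libraries and 20, 28 and 24 in the controls, and was the only one of the 3 whose groups did not overlap (log2 fold change -1.08 ± 0.48). The second had 4, 8 and 15 reads against 14, 17 and 32, with cholesterol library 3 inside the control range (log2 fold change -1.20 ± 0.53). The third rested on control library 2, with 12, 4 and 11 reads against 9, 31 and 18, and that library held 36.5% of its reads (log2 fold change -1.09 ± 0.55). The calls ended, at -0.82 ± 0.49, without cholesterol library 1 for hsa_circ_0083176, at -0.86 ± 0.67 without control library 3 for hsa_circ_0001952, and at -0.54 ± 0.70 without control library 2 for hsa_circ_0008424. For each of the 10 rings, the values given are the smallest of the 6 fits that left out a library, and between 2 and 4 of those fits ended the call. Of the 10, 8 were among the 132 members that passed edgeR's filter on low counts, and 5 of these 8 kept the call in that fit. It ended the calls of hsa_circ_0005389, hsa_circ_0006062 and hsa_circ_0008424. The calls of hsa_circ_0006062 and hsa_circ_0008424 also ended with a filter of at least 2 counts in 3 libraries. Library-size scaling ended that of hsa_circ_0008424. The 3 that DESeq2 called at the unadjusted threshold were hsa_circ_0083176, hsa_circ_0000734 and hsa_circ_0004096.

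**Figure D3:**
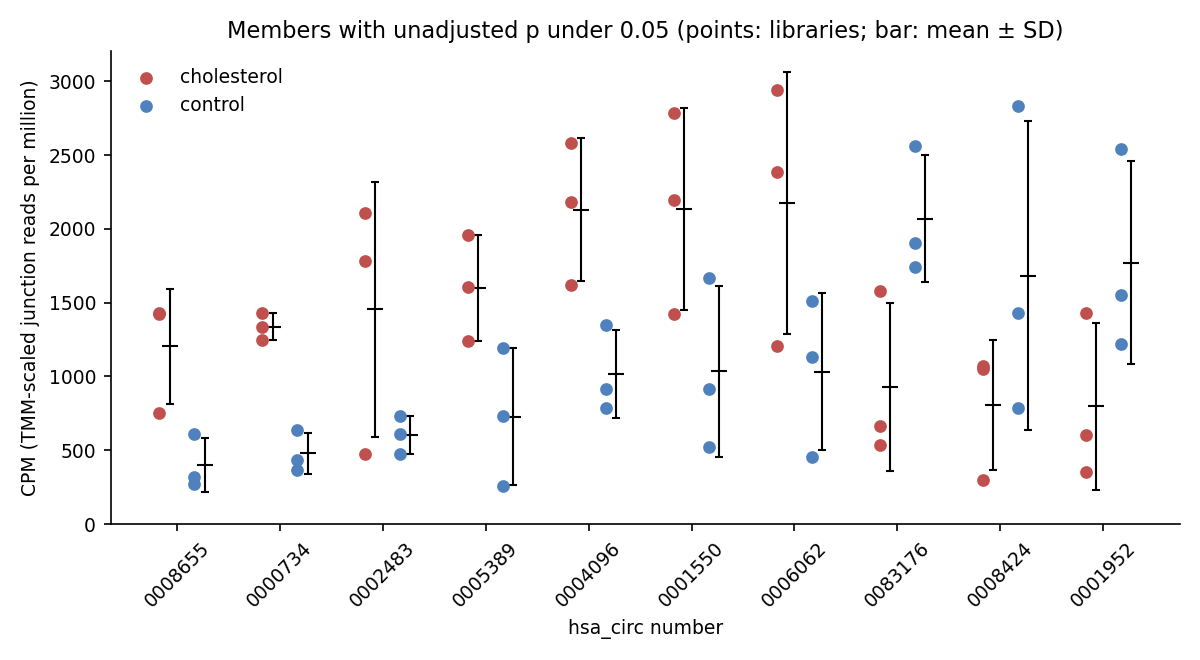
CPM of the 10 members that passed an unadjusted p of 0.05, ordered by fold change, with each library as a point (cholesterol red, control blue) and the mean ± SD of each group as a bar beside it. In 5 of the 10 the groups do not overlap. Several rings show a group with widely spread libraries, among them hsa_circ_0001952, hsa_circ_0005389, hsa_circ_0008424, hsa_circ_0083176 and hsa_circ_0002483.

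The groups could also be compared without a model. In 23 of the 225 members (10.2%) the 3 CPM values of one group all lay above those of the other, 15 with cholesterol higher and 8 with cholesterol lower. Of all 3089 circRNAs, 4.05% were separated in this way, 1.91% with cholesterol higher and 2.14% with it lower, again mostly rows with far fewer reads. The split depended on the scaling, with 11 higher and 9 lower with RLE factors in place of TMM and 18 higher and 6 lower with library-size scaling. Of the 77 catalogued rings with 120 reads or more, 12 (15.6%) were separated, 3 with cholesterol higher and 9 with it lower. Only 5 of the 23 had also passed the unadjusted threshold. The largest fold among the other 18 was that of hsa_circ_0004945, whose 4, 13 and 7 reads stood against 2, 3 and 2 (log2 fold change 1.72 ± 1.16). Separated members with a position were the rings of PCNT, MPZL1, ATG7 and SMYD3, which are named here after their values were seen where the rule for named rings did not give them. PCNT, the gene of the centrosome protein pericentrin, had 14, 16 and 17 reads against 3, 7 and 14 for hsa_circ_0002903 (log2 fold change 0.97 ± 0.62). The ring hsa_circ_0000153 of MPZL1, a membrane glycoprotein gene, had 4, 2 and 4 reads against 7, 7 and 8 (log2 fold change -1.11 ± 1.08).

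Libraries of one group differed more than counting alone would make them. With each member's reads in a group set against depth, the chi-square per degree of freedom had a median of 1.87 (quartiles 1.04 and 3.15), where counting error alone gives about 1, and 174 of the 225 (77.3%) lay above 1. The 77 more abundant catalogued rings were similar on this scale, with a median of 2.07 and 59 of 77 (76.6%) above 1. In CPM, the within-group coefficient of variation (CV, root mean square of both groups) had a median of 43.7% in the members and 23.4% in the more abundant rings, and the CV expected from counts alone was 30.6% and 18.6%. The biological coefficient of variation that edgeR estimated was 33.6% and 22.0%. Between any pair of libraries the member counts had a Spearman correlation of 0.246 to 0.377 within groups (6 pairs) and 0.220 to 0.396 between groups (9 pairs), over the same 225 circRNAs, whose range of sums the rule had narrowed. Every pair of libraries differed by more than counting noise (chi-square per degree of freedom 1.86 to 2.52), so that none was taken as a second copy of another, which does not tell separate cultures from separate preparations.

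**Figure D4:**
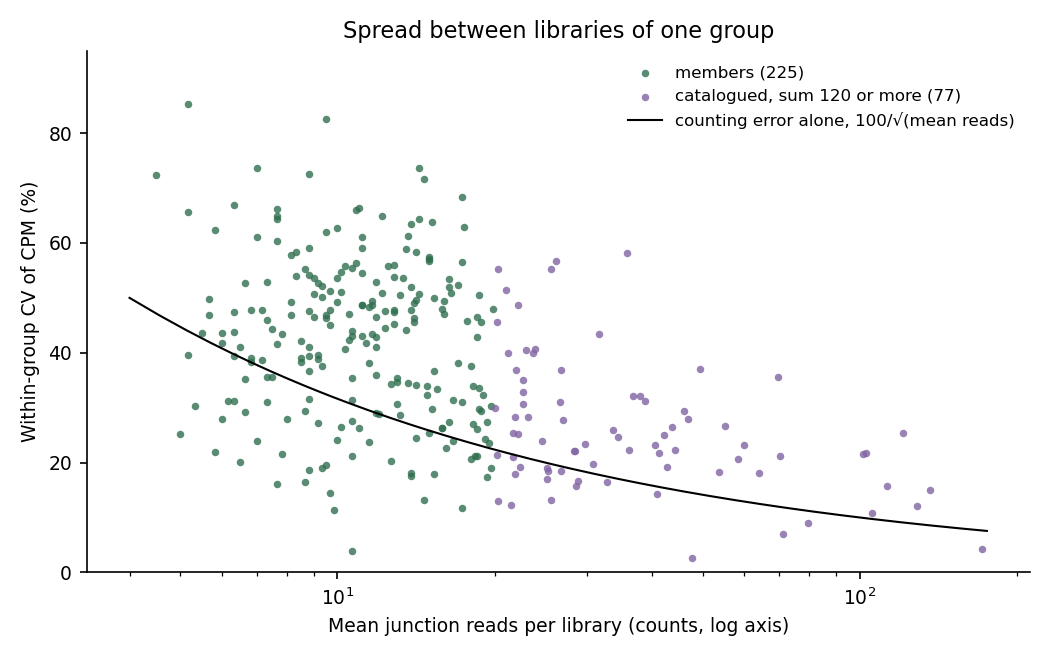
Within-group CV of CPM (vertical axis, percent) against mean junction reads per library (horizontal axis, log scale) for the 225 members and the 77 more abundant catalogued circRNAs. The line is the CV from counting alone, and most points of both sets lie above it, with medians of 43.7% and 23.4%.

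Among members with 60 reads or more, the steadiest ring was hsa_circ_0004777 of SOX13, a gene of the SOX family of transcription factors. It had 10, 13 and 10 reads in the cholesterol libraries and 10, 10 and 11 in the controls, or 941 ± 45.3 and 886 ± 23.9 CPM (SD, n = 3), a within-group CV of 3.90% where counts alone give 30.6%. Its log2 fold change was 0.09, with a 95% interval of -1.18 to 1.35, which still leaves room for a change of more than a doubling. Next came hsa_circ_0002387 of TNIK, a kinase gene of the Wnt pathway, with 18, 16 and 14 reads against 18, 19 and 19 (CV 11.6%, log2 fold change -0.22, 95% interval -1.13 to 0.70). The ATG7 ring hsa_circ_0008927 had 9, 12 and 12 reads against 18, 17 and 20 (CV 13.1%), and the groups did not overlap, yet the log2 fold change of -0.73 ± 0.53 did not pass. ATG7 encodes the activating enzyme of the autophagy conjugation system. The other 2 of the steadiest 5 were hsa_circ_0002024 (CV 17.4%) and hsa_circ_0002789 (CV 17.6%). In all 5 the CV lay below that expected from counts alone, which ran from 22.8% to 30.6%. The ranking therefore does not show that these rings are steadier than others.

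The 5 most variable members of that size had CVs from 65.9% to 73.7%. In hsa_circ_0005813 the counts were 6, 8 and 20 with cholesterol and 14, 30 and 8 without it, so single libraries of both groups stood out. In hsa_circ_0006032 cholesterol library 2 had 2 reads where libraries 1 and 3 had 15 and 21, and control library 1 had 5 where the others had 23 and 22. For hsa_circ_0006376 the cholesterol libraries were even (17, 20 and 20 reads) and control library 2 alone was high (7, 32 and 8). Low counts in cholesterol library 3 marked hsa_circ_0007142, with 16, 23 and 2 reads against 4, 13 and 8, and hsa_circ_0029803, with 10, 18 and 2 against 5, 10 and 20. In 23 members a single library held more than 33.3% of all reads, and none had more than 41.9% in 1 library.

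The members with a position and the most reads, whose junctions are printed above, come from hosts with different known roles. DNMT3B encodes a de novo DNA methyltransferase, and its ring hsa_circ_0001137 had 29, 15 and 28 reads with cholesterol and 11, 16 and 15 without it (log2 fold change 0.78 ± 0.44), with cholesterol library 2 inside the control range. ASXL1, a chromatin regulator of the Polycomb system, gave hsa_circ_0006922 with 17, 24 and 6 reads against 33, 5 and 20, so that both groups held a library near 5 reads and one above 20 (log2 fold change -0.31 ± 0.47). MRTFA encodes an actin-regulated coactivator of serum response factor. Its ring hsa_circ_0002877 had 4, 26 and 34 reads against 14, 10 and 16, and cholesterol library 1 alone lay below the controls (log2 fold change 0.68 ± 0.47). BCAR3, the gene of an adhesion-signalling adaptor, gave hsa_circ_0006427 with 17, 9 and 19 reads against 32, 18 and 16 (log2 fold change -0.54 ± 0.45). The proteasome subunit gene PSMA7 gave hsa_circ_0003456 with 11, 25 and 10 reads against 11, 21 and 24 (log2 fold change -0.29 ± 0.48). DOP1B, which takes part in endosome to Golgi traffic, gave hsa_circ_0001187 with 23, 7 and 9 reads against 13, 22 and 24 (log2 fold change -0.58 ± 0.49). In each of these 6 rings the groups overlapped, and none passed the unadjusted threshold with all libraries in the fit. Single libraries decided several of these values. The ring of DNMT3B passed without cholesterol library 2 (log2 fold change 1.09). The ring of MRTFA passed without cholesterol library 1 (1.14) and was at 0.10 without cholesterol library 3. That of DOP1B passed without cholesterol library 1 (-1.32) and was at -0.22 without cholesterol library 2. For ASXL1 the log2 fold change was -0.73 without control library 2 and 0.30 without control library 1. Those of BCAR3 (-0.81 to -0.20) and PSMA7 (-0.75 to -0.12) stayed below 0 with any 1 library left out and did not pass.

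Host genes were also compared with lists of genes, chosen with earlier results of these data known. Of 40 cholesterol homeostasis genes, 3 hosted a listed ring with a position, and 1 member was among those rings, hsa_circ_0007291 of SCAP (chr3:47425485-47428670, minus strand, 5 exons, 785 nt). SCAP escorts the SREBP transcription factors out of the endoplasmic reticulum when sterol is low. The ring had 6, 14 and 16 reads with cholesterol and 6, 8 and 6 without it. Cholesterol library 1 lay among the controls, and the log2 fold change of 0.84 ± 0.72 did not pass. NCEH1, which encodes an enzyme that hydrolyses cholesteryl esters, is in none of the lists and is named after its values were seen. Its ring hsa_circ_0007042 (chr3:172645623-172648114, minus strand, 2 exons) had 7, 4 and 2 reads against 14, 5 and 12, and the groups overlapped (log2 fold change -1.23 ± 0.87). The chromatin list (42 genes) held 2 members, those of ASXL1 and DNMT3B, and the ubiquitin list (41 genes) held hsa_circ_0067716 of RNF13, a membrane-bound ubiquitin ligase gene, with 10, 16 and 9 reads against 6, 13 and 10 (log2 fold change 0.27 ± 0.65). The lists of RNA-binding and splicing genes (40), of actin, microtubule and adhesion genes (41) and of matrix-degrading enzymes (15) held 0 members. These lists are short and leave out hosts of such roles, among them KHDRBS1 and BCAR3, so a count of 0 does not say that members lack them. Of the lists named here, 0 of the 4 listed members passed the unadjusted threshold. The junctions of the rings from these cholesterol genes were:
hsa_circ_0007291 (SCAP): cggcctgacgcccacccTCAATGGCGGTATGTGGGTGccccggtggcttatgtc
hsa_circ_0007042 (NCEH1): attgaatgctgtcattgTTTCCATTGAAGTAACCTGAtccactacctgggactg

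Members often came from genes that give several rings. The 41 rings with a position came from 38 hosts, and 26 of the 41 (63.4%) had another listed catalogued ring from the same host, against 193 of 427 (45.2%) of the rings missing from a library and 7 of 14 of those in every library with 120 reads or more. No difference between these shares was tested. Of the 41, 12 shared their acceptor with another listed ring, 9 shared their donor, and 18 shared either. In 20 of the 23 hosts with several listed rings, a member was the ring with the most reads, which the rule favours, since the remaining rings were mostly at 0 in some library. The exceptions were ATXN10, CCDC134 and SMYD3, where the leading ring had 120 reads or more.

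ATXN10, the ataxin 10 gene, had the most listed rings, 9, and 619 reads over them. Its leading ring hsa_circ_0001247 (chr22:45729425-45740538) had 45, 109 and 40 reads with cholesterol and 62, 86 and 77 without it. The members hsa_circ_0004243 and hsa_circ_0003054 start at the same acceptor further upstream (chr22:45689712) and end at different donors, and in all 4 rings used that acceptor. Reads of hsa_circ_0004243 were 6, 17 and 9 against 13, 18 and 6, and those of hsa_circ_0003054 were 9, 6 and 5 against 7, 7 and 8, which is the more even of the pair. The number of ATXN10 rings above 0 was 5, 7 and 3 in the cholesterol libraries and 3, 7 and 6 in the controls, and the libraries with 7 were those with the most ATXN10 reads (157 in cholesterol library 2 and 152 in control library 2). The junctions of the pair, which share the part after the back-splice, were:
hsa_circ_0004243 (ATXN10, chr22:45689712-45702847, plus strand): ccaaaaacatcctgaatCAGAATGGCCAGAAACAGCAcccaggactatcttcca
hsa_circ_0003054 (ATXN10, chr22:45689712-45718493, plus strand): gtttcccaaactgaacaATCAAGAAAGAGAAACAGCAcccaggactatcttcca

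Whether cholesterol moved reads between rings of a host could be asked where at least 2 rings of the host were found in every library, in 5 hosts and 6 comparisons. In SMYD3, a methyltransferase gene, the member hsa_circ_0017306 had 16, 18 and 8 reads against 17, 19 and 19, and the leading ring hsa_circ_0005090 had 63, 94 and 52 against 42, 36 and 63. The leading ring passed the unadjusted threshold (log2 fold change 0.56), and the member did not (-0.39 ± 0.49). The member made up 20.3%, 16.1% and 13.3% of the pair's reads with cholesterol and 28.8%, 34.5% and 23.2% without it. The groups did not overlap, with means of 16.6% ± 3.48 and 28.8% ± 5.69 (SD, n = 3), and the exact two-sided permutation p of 0.1 was the smallest that the design allows (0.600 adjusted over the 6 comparisons). In CCDC134, which encodes a secreted coiled-coil protein, the member hsa_circ_0008806 shares the acceptor of the leading ring hsa_circ_0001238 and had 14, 11 and 28 reads against 8, 10 and 10. It made up 17.7%, 11.6% and 33.7% of the pair's reads against 9.76%, 13% and 10.8%, a mean difference of 9.85 percentage points (p = 0.200, exact permutation, two-sided) that came to 3.48 points when cholesterol library 3 was left out. In SCMH1, a Polycomb-group gene, hsa_circ_0000061 had 15, 5 and 7 reads against 18, 15 and 10, and hsa_circ_0004628 had 15, 10 and 16 against 12, 28 and 11. The share of the former was 37.9% ± 10.6 and 47.5% ± 12.6 (SD, n = 3, exact two-sided permutation test, p = 0.400).

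The KHDRBS1 rings come from the gene of Sam68, an RNA-binding regulator of splicing. Here hsa_circ_0007231 (exons 5 to 7) had 16, 6 and 13 reads in the cholesterol libraries and 7, 4 and 7 in the controls, and hsa_circ_0002467 (exons 5 to 8) had 8, 13 and 6 against 9, 3 and 4. The shorter ring led in cholesterol libraries 1 and 3 and the longer one in cholesterol library 2. The share of hsa_circ_0002467 was 44.4% ± 20.8 and 45.2% ± 10.1 (SD, n = 3), which did not differ beyond the spread (exact two-sided permutation test, p = 1.0). In ATXN10 the members' shares also stayed within it, with exact two-sided permutation p of 0.7 for hsa_circ_0003054 and 0.8 for hsa_circ_0004243.

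In other hosts a member shared a splice site with a ring that was at 0 in some libraries, and these are given as counts with no test. All 3 listed DYRK1A rings start at the same acceptor as hsa_circ_0006062. Of these, hsa_circ_0005955 had 0, 12 and 0 reads with cholesterol and 0, 11 and 11 without it, and hsa_circ_0004407 had 0, 0 and 0 against 7, 2 and 0. Taken with the member, DYRK1A had 33, 28 and 25 junction reads against 20, 18 and 30, so that the host's sum overlapped between groups as the member did. ATG7 had 6 listed rings, 4 of them on the acceptor of hsa_circ_0008927, and hsa_circ_0008210 was the next in reads with 9, 17 and 6 against 0, 21 and 14.

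RASAL2, a gene of a Ras GTPase-activating protein, gave a pair of rings that share a donor and have acceptors 8 bases apart, and it is named after its values were seen. The member hsa_circ_0002061 had 11, 3 and 2 reads with cholesterol and 17, 8 and 12 without it (log2 fold change -1.19 ± 0.76). The ring that starts 8 bases upstream, hsa_circ_0006126, had 3, 13 and 11 reads against 6, 0 and 0 (log2 fold change 2.10). Where one was high the other was low in cholesterol libraries 2 and 3 and in control libraries 2 and 3, and the sum of the pair, 14, 16 and 13 against 23, 8 and 12, did not separate the groups. Neither ring passed the unadjusted threshold. Unlike those of the member, the ends of hsa_circ_0006126 did not both fall on exon boundaries of the same annotated transcript.

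**Figure D5:**
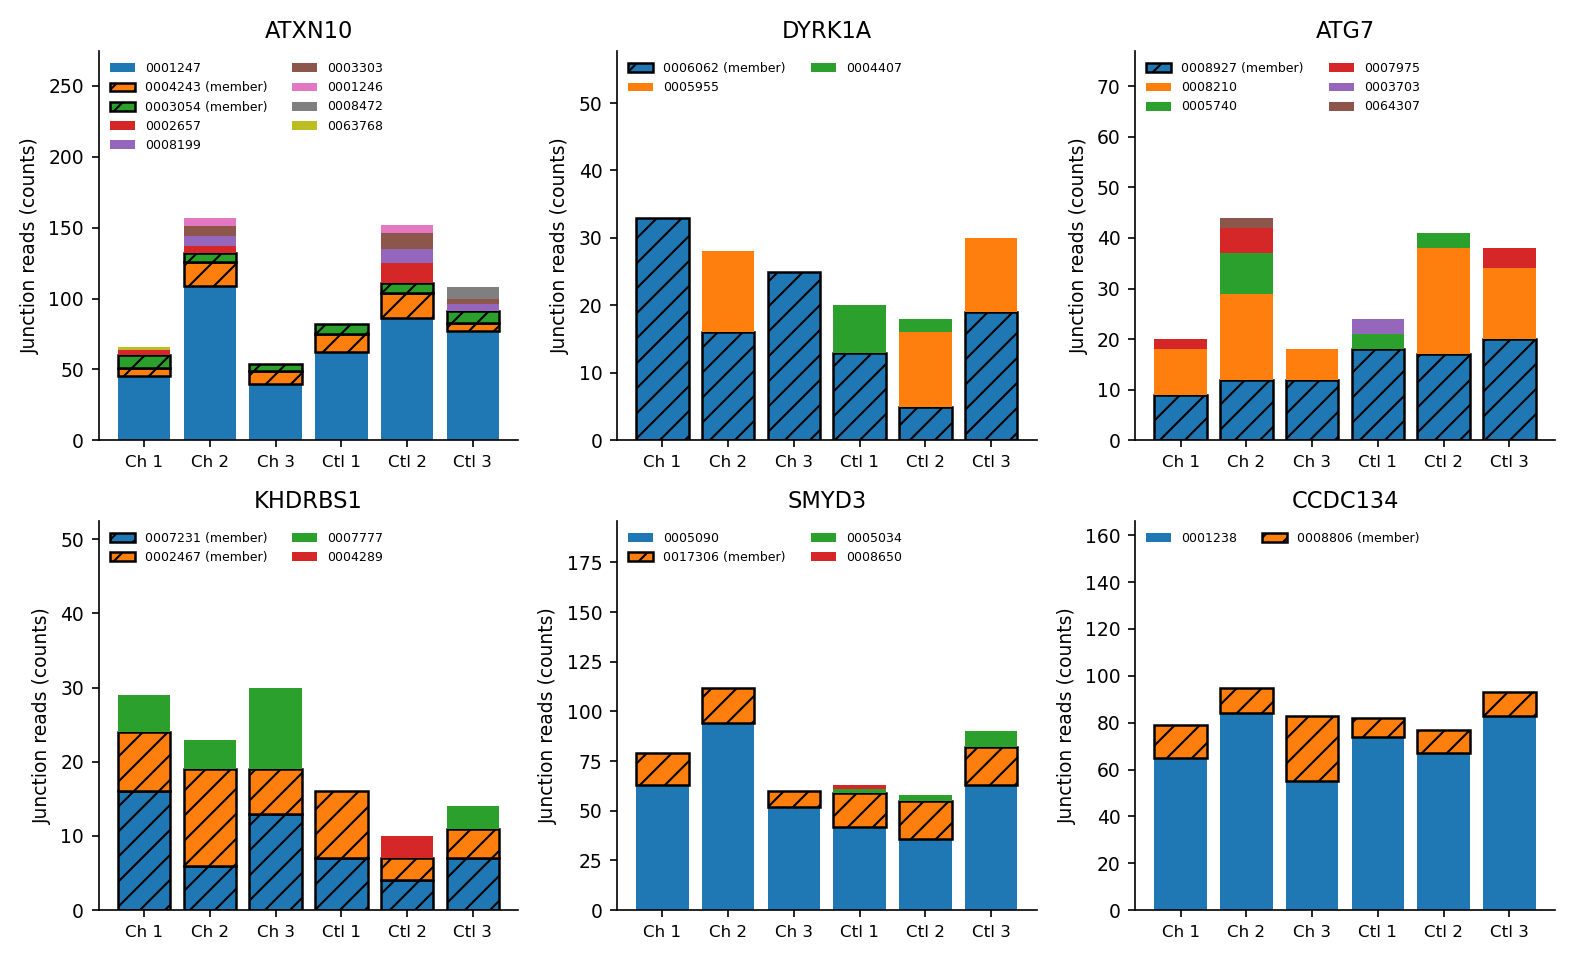
Junction reads (counts) of every listed catalogued ring of 6 hosts in cholesterol (Ch) and control (Ctl) libraries 1 to 3, stacked, with members hatched and outlined. In ATXN10, SMYD3 and CCDC134 the member lies on top of a more abundant ring, in DYRK1A and KHDRBS1 the members carry most of the reads over the 6 libraries, and in ATG7 the member is the ring with the most reads.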

How the data were processed

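The authors trimmed reads with cutadapt 2.7, aligned them with BWA 0.7.17 to GRCh38 and called back-splice junctions with CIRI. They deposited the junction reads of each circRNA as whole-number counts, with a second set of 6 columns, headed TPM, that are CPM values (counts over the library's sum) and were used only to check the counts. No count of 1 is listed, and the filter behind this is not given in the sources used here. Libraries were grouped by their titles. Counts were fitted over all 3089 rows without a filter by edgeR 4.0.16 (TMM, quasi-likelihood with legacy=FALSE, Benjamini-Hochberg) in R 4.3.3. DESeq2 1.42.0, library-size and RLE scaling, filters on low counts, a replicate block, other limits of the rule and each library left out were alternatives, and edgeR's legacy quasi-likelihood was added after seeing the data. Fits were also run on simulated counts whose planted changes were larger than that of any member, so smaller changes were not tested there. Positions and junctions came from the study's sequence sheet, shortened to chromosomes 1, 3, 20, 21 and 22 in the copy used, and were matched to GRCh38 and GENCODE 44. The members, gene lists and tests were chosen with earlier results of these data known. Rings named in the text were up to 8 members in each direction with the smallest p under 0.05, the 6 with the largest and 4 with the smallest sums beside the 4 just above the limit (hsa_circ_0082624 and hsa_circ_0017636, tied in sum with the last of these, were added after their values were seen), the 5 most and 5 least variable of those with at least 60 reads, the 8 with a matched junction and the most reads, and the rings of the 5 hosts with the most reads. Hosts tested for a split, hosts on the gene lists and a few names given as such after their values were seen were added. The shallowest library held 9168 junction reads and the deepest 14322. The binomial intervals of the members' read share cover counting error only, while those of log2 fold changes follow from the standard errors of the edgeR fit.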

Additional observations from a re-analysis of the deposited data

How the results depend on the processing

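Against 10 members called by edgeR's quasi-likelihood test, 3 were called by DESeq2, 5 with edgeR's filter on low counts (which tests 132 of the 225), 6 of those with a sum under 100, and 4 with the legacy quasi-likelihood, which was added after seeing the data. The share of members called was 4.44% beside 2.46% of all rows at first, and lay below that of all rows with edgeR's filter (3.79% beside 7.09%), with at least 2 counts in 3 libraries (9 of 225 members beside 6.18%) and with the legacy quasi-likelihood (1.78% beside 1.85%). No member passed adjustment in any of these. With the replicate number as a block (the replicate block), 13 were called, 10 higher and 3 lower, including all 10, while the calls over all rows fell from 76 to 51 (1.65%). Whether same-numbered libraries belong together is not given in the sources used here. Their deviations from the group means had correlations of -0.026, 0.0379 and -0.145. Those of differently numbered libraries ran from -0.0825 to 0.0979, a range too similar to decide it. Leaving out each library gave 8 to 11 calls, of which 2 to 7 were among the 10, with 2 to 8 higher and 2 to 6 lower, beside 2.32% to 2.90% of all rows. The count of members whose groups do not overlap rose to between 43 and 60 when a library was left out, as 3 against 2 values separate more easily, and that over all rows rose from 125 to between 229 and 280 (7.41% to 9.06%). Leaving out each library, the share of the members differed by 0.970 to 2.30 percentage points, and their median log2 fold change lay between -0.041 and 0.037. The split between rings of a host reversed in some of these fits for hsa_circ_0003054 (-0.976 to 4.25 percentage points), hsa_circ_0004243 (-2.85 to 1.96) and hsa_circ_0002467 (-12.7 to 5.72), and kept its direction for SMYD3 (-15.1 to -9.44), CCDC134 (3.48 to 14.6) and SCMH1 (-15.9 to -3.33). None of the 10 called members changed direction in the alternative fits that tested it, and 2 of the 10 were not tested with edgeR's filter. The next counts cover the 31 uncalled members given by the rule for named rings, and not the uncalled members named for other reasons. Of the 31, 8 passed the unadjusted threshold without 1 of the libraries, and 1 (hsa_circ_0001137, log2 fold change 0.80) passed with the replicate block. With a library left out, 11 of the 31 turned direction. The log2 fold changes of these 11 ran from -1.58 to 0.22 (hsa_circ_0001905), -0.44 to 0.01 (hsa_circ_0003054), -0.64 to 0.19 (hsa_circ_0004243), -0.63 to 0.28 (hsa_circ_0004628), -1.36 to 0.07 (hsa_circ_0005813), -1.01 to 0.19 (hsa_circ_0006032), -0.12 to 1.36 (hsa_circ_0006376), -0.73 to 0.30 (hsa_circ_0006922), -0.59 to 0.88 (hsa_circ_0007511), -0.87 to 0.32 (hsa_circ_0029803) and -0.10 to 0.33 (hsa_circ_0058806). The median standard error of a member's log2 fold change was 0.64, which limits what could be seen. How much of it came from depth and how much from the spread between libraries was not tested.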
